A study of Arabidopsis thaliana with 12 samples.

Results

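The comparison described here is wild-type (wt) shoot stem cells of Arabidopsis thaliana after heat against wt stem cells without heat, and it asks what DNA methylation still differed after recovery. It uses 4 of the 12 samples of the series, 2 wt heat and 2 wt control, which were deposited as 1 pooled set of counts per group. Members are the nuclear loci with at least 50 cytosine calls in both wt columns: 54153 of 69575 nuclear loci in at least 1 sequence context and 36773 in all 3 contexts. In CG these were 7766 transposable elements (TEs), 26673 protein-coding genes and 4524 other loci such as non-coding RNA genes and pseudogenes. For CHG they numbered 7130, 26636 and 4494, and for CHH 20775, 27096 and 6246.

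All plants were of the Col-0 ecotype and carried the reporter pCLV3::H2B-mCherry, which labels the nuclei that the CLV3 promoter drives, so that the sort rests on that promoter. In the heat group seedlings were kept at 37 °C for 1 day that ended at day 7, were moved to soil and recovered for 21 days, while control plants had no heat. Nuclei were sorted from inflorescence apices at day 28 in both groups. The mutants poliv, which lacks RNA polymerase IV, and ddm1, which lacks the chromatin remodeller DDM1, carried the same reporter, had the same pair of treatments and serve here as other libraries in which the wt differences can be read.

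In plants cytosines are methylated in 3 contexts, where H stands for any base but G. CG methylation is copied at replication by MET1, CHG methylation is kept by CMT3 in a loop with histone H3 lysine methylation, and CHH methylation is set anew by DRM2, which small RNAs guide, and by CMT2 in compact heterochromatin. TEs commonly carry all 3, and many expressed genes carry CG methylation only, called gene-body methylation. The shoot stem cells give rise to the flowers, so a state kept in them can reach the germ line.

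A level is the percentage of calls at a locus that were methylated. The chloroplast genome is taken as unmethylated, and its level was 0.670% in heat and 0.328% in control for CG, 0.684% and 0.345% for CHG, and 0.703% and 0.390% for CHH. This level was subtracted from each column, and every difference below is heat minus control in percentage points after that subtraction, while levels are given as measured. The wt heat column held 47896629 nuclear calls in CG and the wt control column 30169987, with 225474904 and 137229170 in CHH. Since the libraries were pooled, no value has an error between replicates. Intervals and p-values compare the pooled libraries, cover counting error only and do not show how plants of a condition vary.

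Across TEs, CG methylation was higher and CHG methylation lower in heat. Mean CG was 71.1% in heat and 69.9% in control, a difference of 0.91 points (median 0.79), and 61.2% of TEs lay above 0. Mean CHG was 40.4% in heat and 41.5% in control, a difference of -1.37 points (median -0.81), and 36.1% of TEs lay above 0. Mean CHH was 5.17% in heat and 4.75% in control, a difference of 0.11 points (median 0.14). These values describe averages over loci and carry no test.

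The signs for TEs were the same on all 5 chromosomes. The CG difference lay between 0.63 points on chromosome 1 and 1.12 points on chromosome 4, and the CHG difference between -1.54 points on chromosome 3 and -1.12 points on chromosome 4. In CHH it lay between 0.04 and 0.17 points. The chromosomes come from the same libraries and are not replicates. Protein-coding genes differed by 0.12 points in CG, -0.09 in CHG and 0.01 in CHH on average, and for CHH in genes the median was -0.00052 points and so of the other sign. In poliv, heat minus control at TEs was 0.24 points in CG and -0.24 in CHG, and in ddm1 it was -1.18 and 0.49 points. Weighted by coverage, the poliv difference in CG was -0.69 points, and the ddm1 median in CHG was -0.02 points, so both signs turned with the kind of average.

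**Figure D1:**
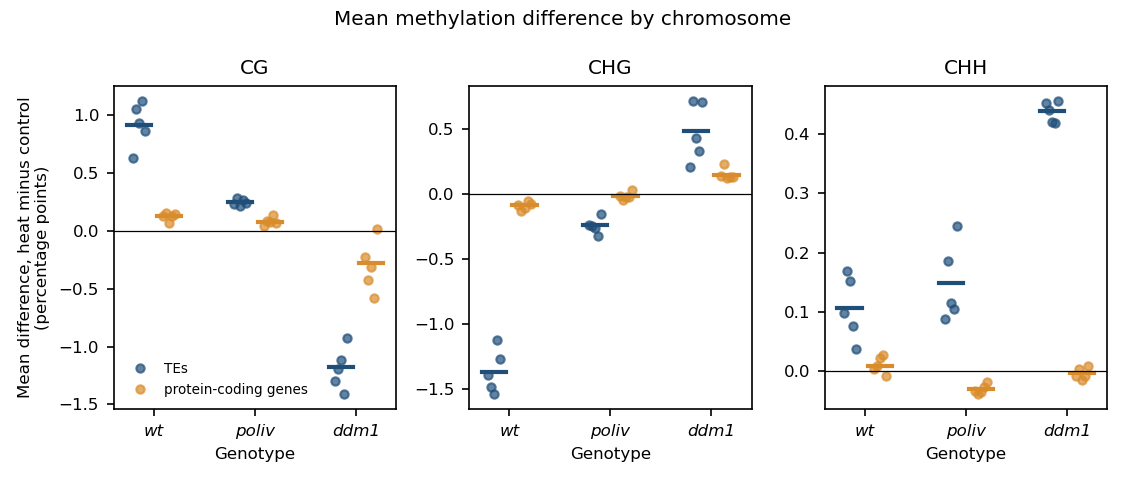
Mean difference in methylation, heat minus control in percentage points with the chloroplast level subtracted (y axis), in wt, poliv and ddm1 (x axis) for CG, CHG and CHH. Each point is 1 of 5 chromosomes and each line the mean over all loci of the class. In wt all 5 chromosomes lie above 0 in CG and below 0 in CHG at TEs.

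The size of the difference varied with how methylated a locus is. To sort loci without using the wt values, they were grouped by their level in the poliv libraries. TEs with a CG level of 80 to 90% there (3150 TEs) had 89.7% in wt heat and 88.0% in wt control, a difference of 1.33 points with 69.2% of TEs above 0. The 1130 TEs under 5% differed by 0.04 points. In CHG the 2666 TEs at 40 to 60% had 52.1% in heat and 53.8% in control, a difference of -1.99 points with 68.6% of TEs below 0. The 1554 TEs under 5% differed by -0.11 points.

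Genes that carry TE-type methylation differed in the same directions as TEs. The 914 TE-like genes, defined by a CHG level of at least 20% in poliv, had a mean CHG level of 48.2% in heat and 49.8% in control, a difference of -1.97 points, and 65.2% of them lay below 0. Their mean CG difference was 0.66 points over 907 genes. The 6133 body-methylated genes, with at least 20% CG and under 5% CHG in poliv, had a mean CG level of 33.7% in heat and 33.1% in control, a difference of 0.27 points. Genes under 5% in both contexts differed by 0.0012 points in CG and by -0.013 points in CHG.

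In CHH the mean and the median of TEs had opposite signs at the upper end of the poliv levels. Mean CHH at TEs was 2.70% in poliv control beside 4.75% in wt control. A TE with less CHH in poliv than in wt therefore falls in a lower group than its wt level would give. The 8051 TEs under 1% in poliv had 2.98% in wt heat and 2.60% in wt control. TEs with 5 to 10% CHH in poliv (3322 TEs) had 7.31% in heat and 6.72% in control, a difference of 0.28 points. The 626 TEs above 10% in poliv had 20.4% in heat and 21.3% in control, a mean difference of -1.25 points with a median of 0.17 points. The 55 genes above 10% in poliv had 13.7% in heat and 17.0% in control, a mean difference of -3.70 points with a median of -0.77 points.

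**Figure D2:**
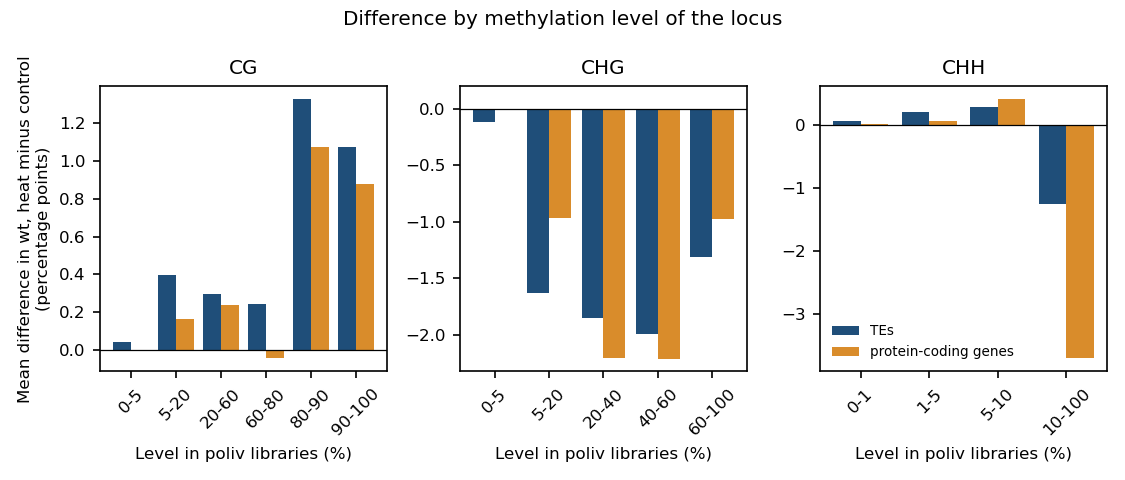
Mean difference in wt, heat minus control in percentage points (y axis), for loci grouped by their level in the poliv libraries in % (x axis), with TEs and protein-coding genes as separate bars. CG bars are tallest at 80 to 90%, where TEs differ by 1.33 points, and CHG bars are lowest at 40 to 60%, where TEs differ by -1.99 points.

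Single loci were compared by Fisher's exact test (two-sided, Benjamini-Hochberg adjustment over all nuclear loci of the context) and called where the adjusted p was under 0.05 and the difference at least 10 points in CG and CHG or 5 points in CHH. Of TEs, 36 were higher in CG in heat and 10 lower, which is 0.464% and 0.129% of those tested. In CHG 7 were higher and 16 lower, 0.0982% and 0.224%. In CHH 702 were higher and 638 lower, 3.38% and 3.07%, while with doubled size limits 347 were higher and 407 lower. Of genes, 13 were higher and 19 lower in CG (0.0487% and 0.0712%). For CHG there were 4 and 6 genes (0.015% and 0.0225%), and for CHH 24 and 42 (0.0886% and 0.155%). Of other loci, 4 were higher and 8 lower in CG (0.0884% and 0.177%). For CHG there were 1 and 3 (0.0223% and 0.0668%), and for CHH 33 and 30 (0.528% and 0.48%). Over all loci the calls came to 0.136% higher and 0.095% lower in CG, 0.0314% and 0.0653% for CHG, and 1.4% and 1.31% for CHH. The test treats each call as independent, although 1 read covers several cytosines. It uses the calls as deposited, without the chloroplast subtraction, so for differences of about 1 point or less its p also reflects the higher chloroplast level in heat. An alternative, named the statistic scaled for dispersion below, replaced the exact test by a z statistic of the difference in level. That statistic was divided by a median-based spread over the loci of the same class. With it, the TE calls numbered 0 for CG, 0 for CHG and 66 for CHH (19 higher and 47 lower), and the gene calls 3, 0 and 5. Whether or not they passed the test, 205 TEs were higher and 120 lower by at least 10 points in CG, and 171 were higher and 371 lower in CHG.

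Among genes the largest CG gain was at AT1G05240, a gene of the peroxidase superfamily, with 38.1% of 289 calls methylated in heat and 14.5% of 172 calls in control. The difference was 23.2 points (95% Newcombe interval 15.1 to 30.5, exact test adjusted p = 4.31e-05). AT5G39110, which encodes a protein of the RmlC-like cupin superfamily, had 95.5% in heat and 77.5% in control, a gain of 17.7 points (10.5 to 25.8). SDG11 (AT2G05900), which encodes a SET-domain protein of the group of histone methyltransferases, had 53.6% in heat and 36.5% in control from 224 and 178 calls (16.7 points, 6.92 to 26.0). AT3G43570, which encodes a GDSL-like lipase, had 93.1% in heat and 78.6% in control. At these 4 genes the poliv differences were -7.92, -0.15, -3.25 and 5.0 points and the ddm1 differences 6.59, -2.55, -3.46 and -9.40 points, with no gene called in either.

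**Figure D3:**
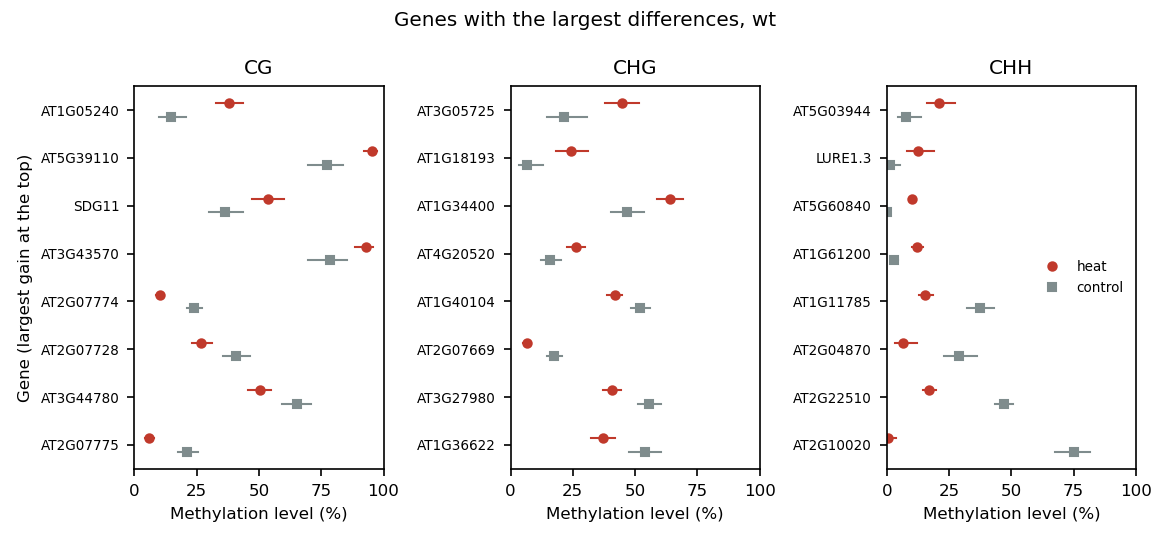
Methylation level in % (x axis) of the genes with the 4 largest gains and 4 largest losses per context among called genes with at least 100 calls in both wt columns. Circles are wt heat, squares wt control and lines 95% Wilson intervals, which cover counting error only. AT2G10020 in CHH has the widest gap, with 0.671% in heat and 75.2% in control.

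Losses of CG in genes fell partly in 1 place. AT2G07775 had 6.01% in heat and 21.3% in control from 682 and 385 calls, a difference of -15.6 points (-20.3 to -11.3, exact test adjusted p = 2.07e-09). AT2G07774 had 10.3% in heat and 24.1% in control, and AT2G07728 had 26.9% in heat and 40.9% in control. All 3 belong to the identifier range AT2G07500 to AT2G07850 on chromosome 2, which covers the stretch that resembles mitochondrial DNA, although not all of its loci are neighbours. The range holds 8 of the 19 gene losses in CG and 4 of the 8 losses of other loci. Outside it, AT3G44780, annotated as a cysteine proteinase gene, had 50.3% in heat and 65.2% in control (-15.2 points, -22.5 to -7.61).

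Over the range, CG was lower in heat at 61 of 82 measured loci, with a median of -3.88 points, and CHG at 67 of 83 with a median of -2.48 points. In poliv 63 of 82 were below 0 in CG with a median of -3.21 points, and in ddm1 51 of 82 with a median of -0.25 points. The mitochondrial genome itself had a CG level of 4.19% in wt heat and 6.84% in wt control, 3.24% and 5.79% in poliv, and 0.630% and 0.421% in ddm1. Calls in heat over calls in control came to 1.95 for the mitochondrial genome in CG, 1.82 for the range and 1.60 for protein-coding genes. The share of reads that mitochondrial DNA gave to these loci was not tested.

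CHG calls in genes were few. AT3G05725, which encodes a protein of unknown function, had 44.7% in heat and 21.6% in control from 199 and 102 calls, a gain of 22.8 points (11.6 to 32.6, exact test adjusted p = 0.021). AT1G18193 had 24.3% in heat and 6.67% in control, and AT1G34400 had 64.1% and 46.8%. AT4G20520, annotated as an RNA-directed DNA polymerase gene, had 26.2% in heat and 15.8% in control, just past the size limit. On the other side AT1G36622 had 37.1% in heat and 54.1% in control (-17.3 points, -25.3 to -9.10). AT3G27980, of the invertase and pectin methylesterase inhibitor superfamily, had 40.7% in heat and 55.7% in control, and AT1G40104 had 41.8% and 52.1%. None of the 10 CHG gene calls was held with the statistic scaled for dispersion.

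The widest differences in genes were in CHH. AT2G10020, an uncharacterised gene, had 0.671% in heat and 75.2% in control from 149 and 137 calls, a difference of -74.8 points (-81.3 to -66.4, exact test adjusted p = 1.08e-41). Its CG level was 87.2% in heat and 95.4% in control, so that CHH calls were almost all unmethylated in the heat column while most CG calls were methylated. In poliv it differed by 8.44 points in CHH and in ddm1 by 1.33 points. AT1G11785 had a CHH level of 15.4% in heat and 37.5% in control, with CG levels of 89.2% and 80.4%. AT2G04870 had 6.57% in heat and 29.1% in control, with CG levels of 96.7% and 96.2%.

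AT2G22510, a gene of the hydroxyproline-rich glycoprotein family, had a CHH level of 16.9% in heat and 47.0% in control from 813 and 670 calls (-30.5 points, -35.0 to -25.8). It carried almost no methylation in the other contexts: CG was 0.893% of 112 calls in heat and 0 of 58 calls in control, which allows a level of up to 5.17%, and CHG was 0.905% and 0.719%. The chloroplast level is 1 value per column and context. Incomplete bisulfite conversion at single genes, which would also read as methylated calls, was not tested. CG levels were under 5% in both columns at 12 of the 35 genes that were lower in CHH and could be measured in CG, and at 3 of 18 that were higher, against 48.8% of all genes. At TEs called in CHH the median CG level was 90.7% in heat and 88.5% in control for those higher and 89.5% and 88.4% for those lower.

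Gains of CHH in genes were smaller. AT5G03944 had 21.1% in heat and 7.91% in control, a gain of 12.9 points (5.22 to 20.1). AT5G43513 (LURE1.3), of the family of peptides that attract pollen tubes, had 12.4% in heat and 1.49% in control. AT1G61200, annotated as homeobox-leucine zipper-like, had 12.2% and 2.77%. AT5G60840, an uncharacterised gene, had 10.1% of 2228 calls methylated in heat and 0.192% of 1559 calls in control, a gain of 9.64 points (8.40 to 10.97, exact test adjusted p = 1.09e-44), while its CG level was 9.07% in both columns. It was the only gene higher in CHH that was also called with the statistic scaled for dispersion.

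At TEs the largest called CG gains among loci with at least 100 calls were at AT5TE70195, with 42.3% in heat and 18.5% in control (23.4 points, 11.9 to 33.7), AT3TE48810 with 61.2% and 38.9%, AT1TE44615 with 91.2% and 73.5%, and AT3TE55295 with 96.3% and 79.5%. The largest CG losses at that coverage were at AT1TE30845, with 71.5% in heat and 93.2% in control (-22.0 points, -29.6 to -14.1), AT4TE48735, AT1TE68660 and AT2TE22870. AT2TE22870 was lower in CG (77.6% in heat, 93.4% in control) and higher in CHH (10.1% and 2.40%), so its contexts moved in opposite directions.

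In CHG the largest TE gain among called loci with at least 100 calls was at AT2TE82000, with 65.9% in heat and 43.9% in control (21.7 points, 10.6 to 32.3), followed by AT5TE40370, AT4TE20760 and AT1TE40940. The largest losses at that coverage were at AT2TE13915, with 37.3% in heat and 57.5% in control (-20.5 points, -30.4 to -10.1), AT2TE11405, AT2TE28280 and AT3TE59390. In CHH AT5TE30945 had 1.23% in heat and 53.7% in control (-52.8 points, -60.3 to -44.5), and AT5TE13050 had 0.980% and 42.2%. AT4TE15905 had 12.2% and 49.5%, and AT3TE63210 had 9.26% and 47.1%. The widest CHH gains at that coverage were at AT5TE55010, with 54.0% in heat and 15.1% in control (38.6 points, 28.7 to 47.0), AT1TE59765 with 51.7% and 17.0%, AT2TE68045 with 36.0% and 1.85%, and AT5TE42350 with 48.2% and 14.9%. Of these 8 TEs in CHH, AT3TE63210 and AT5TE42350 were not called with the statistic scaled for dispersion.

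The contexts were only weakly coupled. Over 4741 TEs with at least 20% CG and CHG methylation in poliv, the CG and CHG differences had a Pearson r of 0.22 (Spearman rho 0.22). In 44.2% of these TEs CG was higher and CHG lower in heat, and the opposite pattern was seen in 7.91%. Both contexts were higher in 23.9% and both lower in 24.0%. Taken singly, CG was higher in 68.1% of these TEs and CHG in 31.8%. These single shares alone would make CG higher with CHG lower the most common pattern. The correlation was positive while the average differences of the contexts had opposite signs. CHG and CHH differences had an r of 0.15 over 5032 TEs and CG and CHH an r of 0.07 over 5130. Genes had r values of 0.14 for CG and CHG (26491 genes), 0.12 for CHG and CHH (26633) and 0.06 for CG and CHH (26669). All points share the same 2 columns and their depths, so these values are descriptions.

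**Figure D4:**
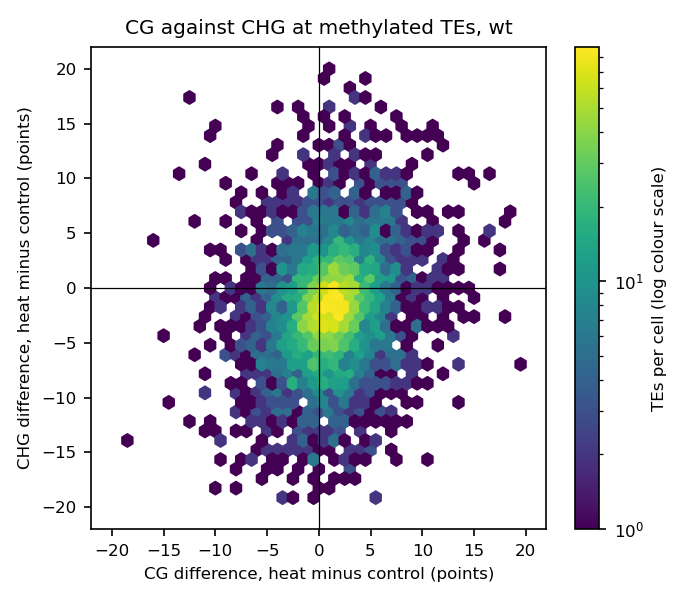
CG difference (x axis) against CHG difference (y axis) in wt, heat minus control in percentage points, at 4741 TEs with at least 20% CG and CHG methylation in poliv. Colour gives the number of TEs per cell on a log scale, and 25 TEs lie beyond the axes. The densest part lies right of 0 in CG and below 0 in CHG.

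Loci called in 1 context were rarely called in another. Calls were rare over all TEs too, at 0.464% higher and 0.129% lower in CG and 0.0982% and 0.224% in CHG. The few shared calls therefore say little about coupling. Of 31 TEs higher in CG that could be measured in CHG, 21 were also above 0 in CHG and 0 were called, where 35.3% of all 6380 TEs with both contexts lay above 0. Of 15 TEs lower in CHG, 11 were below 0 in CG, beside 36.7% of all. Of 89 TEs lower in CHH with a CHG value, 64 were below 0 in CHG, beside 63.9% of all 7120. Of 132 TEs higher in CHH, 72 were above 0 in CHG, beside 36.1% of all. These shares are descriptions from the same columns.

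In all, 5 loci were called in the same direction in more than 1 context. Over all loci, 0.136% were called higher and 0.095% lower in CG, and 0.0314% and 0.0653% in CHG. AT2TE82000 was higher in CHG and in CHH (22.0% in heat and 12.2% in control), and its CG level was 77.2% of 92 calls and 55.0% of 60 calls without a call. AT1TE45610 was higher in CG, with 98.3% and 84.1%, and in CHH, with 9.78% of 225 calls in heat and 0 of 148 calls in control, which allows up to 2.03%. AT1TE39830 was lower in CHG, with 61.1% in heat and 76.7% in control, and in CHH, with 10.9% and 16.4%. AT2G07669, in the identifier range above, was lower in CG, with 9.32% and 21.9%, and in CHG, with 6.52% and 17.5%. AT3G09565, a non-coding RNA gene, was higher in CG, with 70.2% and 45.1%, and in CHH, with 9.41% and 1.01%.

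Neighbouring loci had weakly related differences. The differences of consecutive measured TEs had an r of 0.03 in CG, 0.06 in CHG and 0.02 in CHH over 7761, 7125 and 20770 pairs, and those of genes that do not overlap had an r of 0.02 in CG, 0.03 in CHG and -0.0047 in CHH. After a TE that was lower in CHH, the next measured TE was lower by at least 5 points in 11.6% of cases, beside 6.44% after any TE. After a TE that was higher it was higher by at least 5 points in 9.40%, beside 6.71%. TE overlaps were not analysed here, and nested or abutting TEs can share reads. The TEs were ordered by their identifiers, which are numbered along each chromosome.

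A run was defined as at least 3 consecutive measured loci of a class that were past the size limit in the same direction, with at least 1 called. TEs had 1 run for CG, 0 for CHG and 24 for CHH, of which 12 were higher and 12 lower in heat, and protein-coding genes had 0 in each context. The CG run on chromosome 3 held AT3TE55295, with 96.3% in heat and 79.5% in control (exact test adjusted p = 7.54e-05), AT3TE55300, with 98.9% of 88 calls and 84.9% of 53 calls, and AT3TE55330, with 93.0% and 82.4% (exact test adjusted p = 0.0126). The TE in the middle did not pass the test (exact test adjusted p = 0.0987). In CHG AT3TE55295 and AT3TE55330 differed by 4.95 and 3.58 points, and neither was called.

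The 24 CHH runs comprised 77 TEs, 47 of them called, and 19 runs had 3 TEs and 5 had 4. In the run from AT1TE49435 to AT1TE49460 all 4 TEs were lower in CHH and called. AT1TE49435 had 51.6% in heat and 58.0% in control, AT1TE49450 had 27.8% and 39.2%, AT1TE49455 had 25.4% and 40.4%, and AT1TE49460 had 57.9% and 89.5%. The interval of AT1TE49460 was -38.0 to -25.1 points, and it was the only one of these called with the statistic scaled for dispersion. CG differed little at the 3 TEs with a CG value, by -1.81, 2.14 and -1.62 points.

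Another CHH run lies just before it. Of the 10 measured TEs from AT1TE49405 to AT1TE49460, 9 were below 0 and 7 called lower. AT1TE49430, in their midst, was higher, with 36.8% of 1419 calls in heat and 19.6% of 780 calls in control, a difference of 16.9 points. The next 4 TEs, up to AT1TE49480, differed by -0.01 to 2.03 points. In poliv AT1TE49430 differed by -15.7 points and in ddm1 by -0.30 points. AT1TE49460 differed by -15.6 points in poliv and 17.7 in ddm1.

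**Figure D5:**
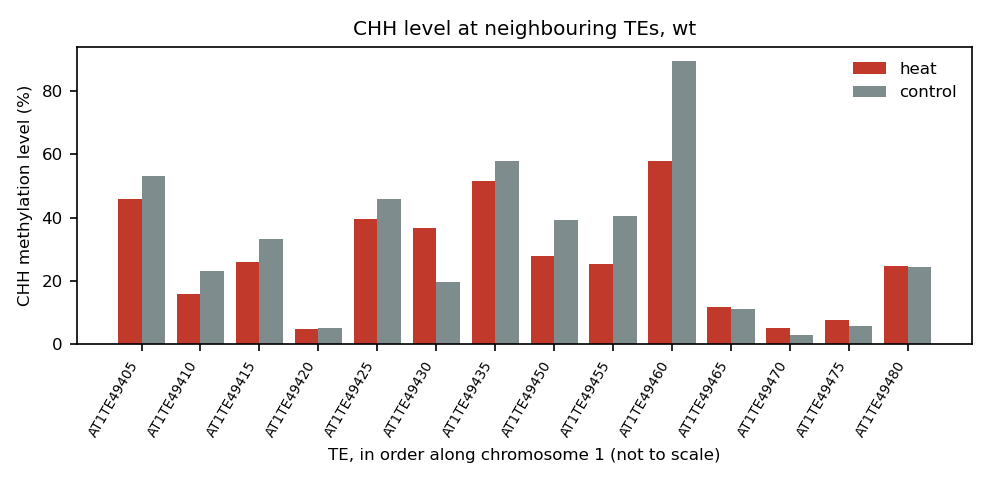
CHH methylation level in % (y axis) at 14 neighbouring TEs of chromosome 1 in their order (x axis, not to scale), with wt heat and wt control as paired bars. Of the first 10 TEs, AT1TE49430 is higher in heat and the other 9 are lower, and the last 4 differ by at most 2.03 points.

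The longest CHH gains included AT1TE76780 to AT1TE76850, 4 TEs of which 3 were called. AT1TE76780 had 23.8% in heat and 16.7% in control, AT1TE76785 had 66.4% of 134 calls and 34.3% of 67 calls, and AT1TE76850 had 18.5% and 3.85%, while AT1TE76830 had 18.1% and 12.1% without a call. In the run from AT4TE14850 to AT4TE14875, which was lower, AT4TE14850 had 8.96% in heat and 19.6% in control, and AT4TE14860 had 74.0% of 73 calls and 100% of 52 calls. The other 2 TEs of that run were not called.

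When protein-coding genes and other gene-type loci were placed in 1 order, an alternative chosen after seeing the data, a CG run of 4 loci appeared on chromosome 2, all called lower. AT2G05155, a non-coding RNA gene, lies beside the others but outside the identifier range above. AT2G07779 had 29.2% in heat and 41.4% in control, AT2G07664 had 8.19% and 23.4%, AT2G07621 had 21.4% and 33.3%, and AT2G05155 had 12.3% and 24.4%. In poliv AT2G07621 differed by -13.1 points, AT2G07664 by -5.62, AT2G05155 by -3.45 and AT2G07779 by 3.16 points. Among other loci alone 3 neighbouring non-coding RNA genes were higher in CHH. AT5G00955 and AT5G00960 overlap, so that they share reads. AT5G00955 had 11.7% in heat and 5.21% in control, AT5G00960 had 11.1% and 3.19%, and AT5G00965 had 6.74% and 0.632%. These runs and their members were chosen after their values were seen.

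The loci called in wt were read in poliv and ddm1, whose libraries share no column with wt. Of all called loci with a value there, 51 of 90 were on the same side in poliv in CG, 17 of 36 in CHG and 742 of 1425 in CHH, which is 56.7%, 47.2% and 52.1%, beside 51.0%, 51.0% and 50.02% of all loci. In ddm1 the shares were 53.3%, 54.1% and 51.7%, beside 48.9%, 50.5% and 51.1%. Over all loci the wt differences had r values between -0.03 and 0.02 with those of poliv and ddm1. The mean CG level of TEs in ddm1 was 13.7% in heat and 14.5% in control.

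Of 681 TEs higher in CHH in wt, 33 were also called higher in poliv and 37 were called lower, and of 615 TEs lower in wt, 51 were called lower in poliv and 43 higher. Of all TEs, 1.56% were called higher and 1.12% lower in poliv. In ddm1, of 698 TEs higher in wt, 66 were called higher and 39 lower, and of 627 TEs lower in wt, 35 were called lower and 68 higher. Of all TEs, 2.92% were called higher and 1.14% lower in ddm1. Of 42 genes that were lower in CHH in wt, 7 were called lower in poliv and 1 higher (16.7% lower, beside 0.0517% of all genes), and 5 were called lower in ddm1 and 2 higher (11.9% lower, beside 0.0332%). All genes are a low base here, since 25269 genes had under 1% CHH in poliv and so little to lose. The genes called lower in wt had a median CHH level of 16.3% in wt control. Counted by side alone, 21 of the 42 were below 0 in poliv, beside 60.7% of all genes, and 18 in ddm1, beside 57.8%, and the median of the 42 was -0.14 points in poliv and 1.15 points in ddm1. Of the 24 genes higher in CHH in wt, 1 was called higher and 1 lower in poliv and 0 were called in ddm1.

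In CHH 10 TEs, 2 genes and 1 other locus were called lower in all 3 genotypes, and 7 TEs were called higher in all 3. The 2 genes are AT2G22510 and AT5G26080, which encodes a proline-rich family protein. AT2G22510 had 19.8% in heat and 32.1% in control in poliv and 19.4% and 29.0% in ddm1, beside the wt levels above. AT5G26080 was chosen after its values were seen: it differed by -10.1 points in wt, -13.5 in poliv and -8.36 in ddm1, and its wt CG level was 47.7% in heat and 52.3% in control. The neighbours AT4G22475 and AT4G22485, also chosen after their values were seen, were lower in CHH in wt, with 18.3% in heat and 33.9% in control and with 22.1% and 38.4%. AT4G22485 belongs to the family of lipid-transfer and seed storage albumin proteins. In poliv they were called lower too, by -8.22 and -10.8 points, while in ddm1 they differed by 1.25 and 1.54 points. Their CG levels were 89.0% in heat and 90.9% in control at AT4G22475 and 92.3% and 93.3% at AT4G22485.

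ONSEN is a Copia retrotransposon whose promoter carries a heat-responsive element. None of its 8 copies was called in any context. Of all TEs tested, 3.38% were called higher and 3.07% lower in CHH, and fewer in CG and CHG. In CG 4 of 5 measured copies lay above 0, with a median of 2.13 points, in CHG 0 of 5, with a median of -2.44, and in CHH 1 of 8, with a median of -1.27, where the medians of all TEs were 0.79, -0.81 and 0.14 points. All TEs include some with little methylation. The copies' mean control level was 25.9% in CHG and 8.84% in CHH. TEs at 20 to 40% CHG in poliv had a median of -1.89 points, with 64.9% below 0. Those at 5 to 10% CHH in poliv had a median of 0.37 points. AT3TE54550 had a CG level of 92.0% in heat and 87.4% in control (exact test adjusted p = 0.0394, 4.23 points) and a CHH level of 4.09% and 2.61% (exact test adjusted p = 0.000272, 1.17 points), both under the size limits. In CHG AT3TE89830 had 34.7% in heat and 43.0% in control, without passing the test. AT1TE24850 had a CG level of 23.0% in heat and 19.9% in control, AT1TE59755 had 90.4% and 90.9%, AT5TE15240 had 89.6% and 88.0%, and AT3TE89830 had 89.2% and 86.8%. In CHH AT3TE92525 had 8.36% in heat and 13.5% in control, AT1TE71045 had 15.4% and 17.7%, and AT1TE12295 had 2.94% of 102 calls and 9.15% of 153 calls.

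A list of TEs induced by heat was taken from the study's RNA data of the same experiment, as was a list of TEs with more RNA after heat in poliv inflorescences at day 28 that hold a potential binding motif of the heat factor HSFA2. Neither list was chosen independently of this experiment. The heat-induced list had 39 measured TEs for CG, 38 for CHG and 46 for CHH, with 0 called, and their medians were 1.16, -0.89 and 0.12 points. The TEs with a potential heat-factor site had 0 calls as well, beside 3.38% of all TEs higher and 3.07% lower in CHH. In CG 52 of 59 lay above 0 with a median of 1.53 points, and in CHG 52 of 58 lay below 0 with a median of -1.95 points. Their mean CHG level was 57.3% in heat and 59.0% in control. Of all TEs, 61.2% lay above 0 in CG and 36.1% in CHG, but these include TEs with little methylation. The list's mean CG level in control was 88.4%. TEs at 80 to 90% CG in poliv had a median of 1.37 points, with 69.2% above 0. TEs at 40 to 60% CHG in poliv had a median of -1.93 points, with 68.6% below 0. The list's medians were close to these, and its shares on 1 side were larger. The groups were not matched for coverage, and shares on 1 side depend on spread. In CG the standard deviation over TEs was 6.14 points in the lowest coverage quartile and 1.84 in the highest. Whether a heat-factor site adds to the differences was not tested. AT2TE21295, a TE of this list, had 47.7% of 4802 calls in heat and 52.9% of 3221 calls in control in CHG (exact test adjusted p = 0.00388, -5.57 points).

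Genes that act in these pathways differed by less than the size limits, as did nearly all genes. Of 26673 genes, 40 were higher and 42 lower by at least 10 points in CG. Of 41 DNA methylation machinery genes 24 lay above 0 in CG, with a median of 0.38 points beside 0.02 for all genes. Their mean CG level was 26.4% in heat and 25.5% in control. Body-methylated genes, at 33.7% and 33.1%, had a median of 0.31 points, close to that of the list. With no size limit, 399 of 26673 genes passed the exact test higher in CG and 67 lower. DMT2 (AT4G14140), a DNA methyltransferase gene of the MET1 family, had 48.4% in heat and 40.6% in control (7.44 points, exact test adjusted p = 0.0032). AGO4 (AT2G27040), which binds the guiding small RNAs, had 34.6% and 29.0% (exact test adjusted p = 0.0308), and NRPD1 (AT1G63020), the main catalytic subunit of the Pol IV enzyme, had 69.7% and 65.7% (exact test adjusted p = 0.0171). Of 29 heat response genes 16 lay above 0 in CG with a median of 0.0088 points. HSFA1A (AT4G17750), a master factor of the heat response, had a CG level of 6.56% in heat and 3.26% in control (exact test adjusted p = 0.0308, 2.96 points). HSFA3 (AT5G03720), a factor tied to heat memory, had a CHH level of 2.14% and 3.03% (exact test adjusted p = 0.0124, -1.20 points). In CHH 264 genes passed the exact test lower with no size limit and 8676 higher.

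Of 12 measured genes with changed RNA at day 28 in wt 0 were called, and medians were -0.04 points in CG, -0.06 in CHG and -0.04 in CHH. AT1G59930 had a CHG level of 33.3% of 90 calls in heat and 47.8% of 67 calls in control without passing the test (exact test adjusted p = 0.503). Of 20 shoot meristem and floral identity genes 0 were called, and their CG differences lay between -2.30 and 1.46 points. CLV3 (AT2G27250), whose promoter drives the reporter, had a CHG level of 2.16% in heat and 0.357% in control (exact test adjusted p = 0.503), and reads of the reporter cannot be told apart from the gene here. Of 7 measured markers of other cell types 0 were called, with CG differences between -3.71 and 1.63 points. Methylation does not measure which cell types were sorted. Of 6 loci known for silencing 0 were called, and all 6 lay below 0 in CHG with a median of -0.56 points, among them QQS (AT3G30720), with 34.9% in heat and 39.4% in control. In CG and in CHH 3 lay above 0 and 3 below. The list's mean CHG level in control was 8.55%. Genes at 5 to 20% CHG in poliv had a median of -0.52 points, with 61.2% below 0.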

How the data were processed

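For the bisulfite libraries the submitters' processing notes name Trim Galore 0.6.2, Bismark 0.22.2, bedtools 2.27 and the build TAIR10, without giving their settings. The authors deposited counts of methylated and of all cytosine calls per locus and context, with 1 set of columns for the 2 libraries of each group; the sources used here do not say how they were combined. The 18 deposited fraction columns were not used, and 2 of 69873 table entries, which name no locus, were left out. Levels, differences and Fisher's exact tests were computed with Python 3.11.15, numpy 2.4.6, pandas 2.3.3 and scipy 1.17.1. The calling was also run on simulated data in which calls were drawn independently. That simulation left out the extra spread of the real calls, so it does not show how many real calls are false. The wt control columns held fewer calls than the wt heat columns, so control levels are the less precise. Gene classes, symbols, product names, order and overlaps came from the RefSeq annotation of TAIR10.1, where 37886 of 38386 nuclear gene identifiers matched; no coordinates or sequences were used. The members, lists and tests were chosen with earlier results of these data known. The lists are ONSEN copies, heat-induced TEs, TEs with a potential heat-factor site, genes with changed RNA at day 28, methylation machinery, heat response, shoot meristem and floral identity, other cell types and silenced loci.

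Named loci are, per context for TEs and for genes, the 4 largest gains and losses among called loci with at least 100 calls in both columns, members of the runs with most loci, loci called in at least 2 contexts, ONSEN copies and called list members. List members that were not called, poliv-shared genes, the loci around the chromosome 1 runs and the runs of other gene-type loci were chosen after their values were seen. Alternatives were a coverage minimum of 100, other background treatments, other size limits, dispersion scaling, a smaller size limit for runs, and leaving out AT2G07500 to AT2G07850.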

Additional observations from a re-analysis of the deposited data

Results flagged for a closer look

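At TEs the mean difference, heat minus control, was 0.91 points in wt and -1.18 points in ddm1 in CG, with the mean of every chromosome on its genotype's side. In CHG it was -1.37 points in wt and 0.49 points in ddm1, again with the mean of every chromosome on its side, but the ddm1 median was -0.0219 points, on the side of wt, and 49.5% of TEs in ddm1 lay above 0. Protein-coding genes in CHG differed by -0.0874 points in wt and 0.150 points in ddm1. These opposite directions were found without a test of the difference between the genotypes, and TEs in ddm1 started from 14.5% CG and 8.87% CHG in control, beside 69.9% and 41.5% in wt control.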

How the results depend on the processing

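No paired analysis was possible because each group was deposited as 1 pooled set of counts, and for the same reason no library could be left out. Mean differences at TEs kept their sign in CG and CHG under every alternative run. In CG at TEs they were 1.06 with a coverage minimum of 100, 1.25 without chloroplast subtraction, 1.16 with scaled levels, 0.664 weighted by coverage and 0.785 as a median, and in CHG -1.52, -1.03, -1.24, -1.83 and -0.811. CHH at TEs came to 0.419 without subtraction, 0.121 scaled, 0.122 with coverage in all 6 groups, 0.139 weighted and 0.144 as a median. Genes in CG had 0.464, 0.170, 0.310 and 0.0156 without subtraction, scaled, weighted and as a median. Genes in CHG had -0.0762 with a minimum of 100, -0.0813 scaled, -0.106 weighted, -0.0195 as a median and -0.0804 without AT2G07500 to AT2G07850 (chosen after seeing the data), but 0.252 without subtraction, where the sign turned: the chloroplast level, which that setting leaves in, was higher in heat. Genes in CHH had 0.322 without subtraction, and the sign turned when weighted (-0.000590) and as a median (-0.000524). The cause of these last turns was not tested.

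Called TEs and genes numbered 8 and 2 for CG, 10 and 2 for CHG, and 754 and 18 for CHH with doubled size limits, 311 and 466, 71 and 420, and 2622 and 8940 with no size limit, and 0 and 3, 0 and 0, and 66 and 5 with the statistic scaled for dispersion. For CHH at TEs the larger direction turned, with 347 higher and 407 lower at doubled size limits and 19 higher and 47 lower with dispersion scaling. The share of loci on the same side in both contexts was, without subtraction, 48.9% for CG and CHG, 59.5% for CG and CHH and 49.2% for CHG and CHH at TEs, and 63.1%, 65.3% and 77.1% at genes. With a minimum of 100 it was 47.9% for CG and CHG and 50.2% for CHG and CHH at TEs. Runs at a minimum of 100 numbered 0 at TEs in CG and 13 in CHH. With the size limit for runs lowered to 50% they numbered 4, 2 and 90 at TEs for CG, CHG and CHH, and 6 and 1 at genes in CG and CHG. With genes and other loci in 1 order there was 1 run in CG and 1 in CHH. Counting overlapping neighbours as 1 was run for genes only. Among calls held with dispersion scaling, 5 of 5 in CG and 43 of 72 in CHH were on the same side in poliv (100% and 59.7%). In ddm1 it was 4 of 5 and 35 of 72 (80% and 48.6%), and CHG had no such calls. The CG shares rest on 5 loci. Among these, at least AT2G07774 and AT2G07775 lie in the range AT2G07500 to AT2G07850, where 63 of 82 measured loci were below 0 in poliv. Without that scaling, 5 loci were called lower in CG in both wt and poliv. AT2G07621, AT2G07669, AT2G07774 and AT2G07688 lie in the range and AT3G44780 lies outside it. The CG calls shared with poliv thus lie mostly in that range. Of 65 named calls, 65 were kept without subtraction and 12 with dispersion scaling. The pooled columns give no spread between plants, and 18 of 90 called loci in CG, 9 of 37 in CHG and 369 of 1469 in CHH had under 100 calls in a column.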
